A study of Mus musculus with 12 samples.

Results

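The response of B16F10 cells, a transplantable mouse melanoma line, to interferon alpha (IFNα) was read across all genes from 6 of the 12 RNA libraries of the study. The 6 were chosen by their labels: 3 libraries of wild-type cells labelled IFNα stimulation and 3 of wild-type cells labelled control. The other 6 came from B16F10 cells that carry the C435A form of IRF7, with and without IFNα, and were used for the spread between libraries and for a side-by-side comparison. The labels give neither the dose and duration of IFNα nor the content of the control, and they do not say whether the C435A line is 1 clone. They name no separate cultures either, so a p-value here reflects the spread of these libraries alone, and that spread may be technical.

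IFNα signals through a receptor of the chains IFNAR1 and IFNAR2, to which the kinases JAK1 and TYK2 are bound. The kinases phosphorylate STAT proteins, among them STAT2, which enter the nucleus with IRF9 and switch on antiviral genes at the interferon-stimulated response element (ISRE). A separate element, the GAS site, drives other targets, of which Irf1 is the textbook example, and SOCS1 and USP18 close the loop by shutting the receptor down. Interferon-stimulated genes in turn encode antiviral proteins, MHC class I presentation and chemokines that draw T cells.

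Wild-type libraries held 71529862 to 75927461 counts each. Melanocyte markers summed to between 8014 and 9583 CPM (counts scaled to library size) in the 6 libraries, so markers of the labelled cell type were present. Transcripts of lung were present in all 3 IFNα libraries and in 1 control: 14 lung epithelial markers summed to 53.2, 50.5 and 67.7 CPM with IFNα, and to 49.8 CPM in control 1 against 1.06 and 1.41 CPM in controls 2 and 3. None of the 14 was at 0 in every wild-type library, and 13 of the 14 had a positive log2 fold change. Erythroid markers (6 genes) summed to 11.7 CPM in control 1, 0.0548 and 0.0961 CPM in controls 2 and 3, and 6.78, 26.9 and 16.4 CPM with IFNα. Sums of 13 endothelial markers ranged from 49.8 to 57.7 CPM in the controls and from 53.6 to 61.6 CPM with IFNα. Yet 12 of the 13 had a positive log2 fold change and 1 a negative one. Their median was 0.75, at a median control level of 0.074 FPKM. Of 12 general epithelial markers tested, 11 were positive and 1 negative (median 1.46), and of 15 leukocyte markers 7 were positive and 8 negative. Long transcripts also differed from short ones: over 5603 genes the log2 difference of a library from the mean of all 12 had a Spearman correlation with transcript length of -0.209, 0.0509 and 0.386 in the controls and of 0.542, 0.0236 and 0.105 with IFNα. The results below therefore carry, where it matters, the values against control 1 alone, which shares the lung transcripts, and with the length trend removed. In bulk RNA, fewer cells of a type and less RNA per cell cannot be told apart.

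IFNα changed few genes past the threshold. Of 17590 genes tested with edgeR's quasi-likelihood test, 4 passed a Benjamini-Hochberg adjusted p of 0.05, which is 0.0227% of the genes: Irf1 was higher (0.00569% of genes higher) and Id1, Id3 and Col9a3 were lower (0.0171% lower). DESeq2 on the same counts passed 65 genes (0.37%), 14 higher (0.0796%) and 51 lower (0.29%), all 65 with the same sign in edgeR. At an unadjusted p of 0.05 edgeR had 957 genes (5.44%), 471 higher (2.68%) and 486 lower (2.76%). The highest and lowest libraries of the 2 groups did not overlap for 1732 genes (9.85%), 839 higher with IFNα (4.77%) and 893 lower (5.08%). The median log2 fold change of all genes was 0.02, and 52.9% of genes had a value above 0. For 73.6% of the genes the upper 95% limit lay under a 2-fold increase.

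**Figure D1:**
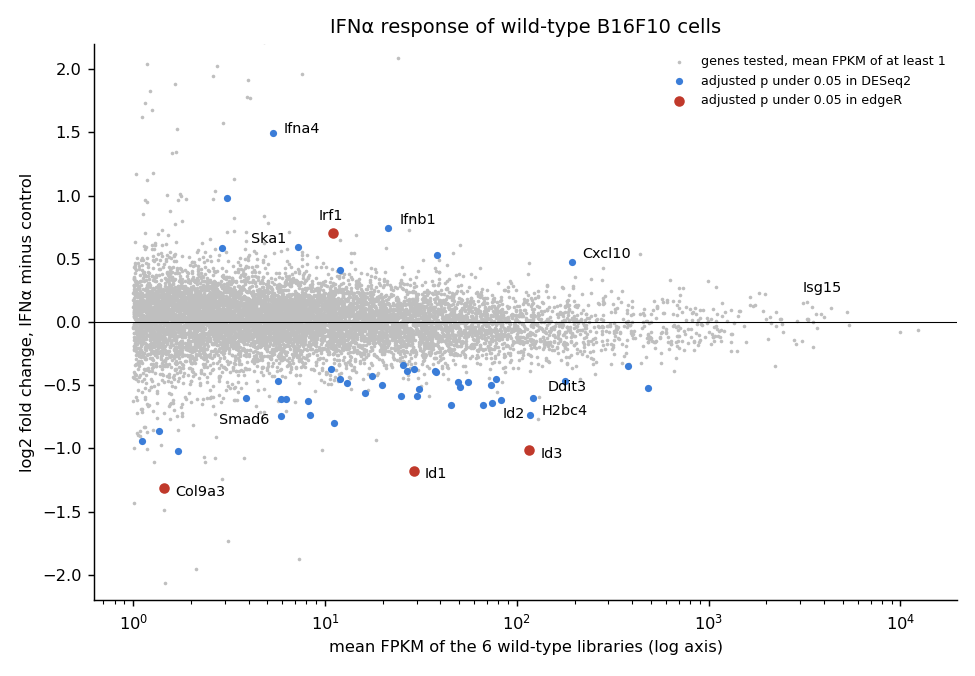
Log2 fold change with IFNα (y axis) against the mean FPKM of the 6 wild-type libraries (x axis, log scale) for 9660 genes with a mean FPKM of at least 1. Red points passed edgeR (Irf1 above, Id1, Id3 and Col9a3 below), blue points passed DESeq2 alone, and 11 grey genes lie beyond the y axis.

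The sequence before the start site of Irf1, the gene that rose, holds a STAT site, and that of Cxcl10, a chemokine gene whose 3 IFNα libraries were all above the controls, holds an ISRE. The 250 bases upstream of the start are given 5′ to 3′ on the gene's strand, from RefSeq on GRCm38.p6, beside those of Id2 and Id3, which were lower. They are shown because elements through which IFNα and the BMP pathway act can lie in such windows. Elements further from the start were not searched. Capitals mark a match to the ISRE (TTTC repeated after 2 bases), the STAT site (TTCNNNGAA) or a GC-rich SMAD1/5 site (GGCGCC), searched on both strands. The Irf1 window is chr11:53769764-53770013 (plus strand), that of Cxcl10 chr5:92348890-92349139 (minus), that of Id2 chr12:25096093-25096342 (minus) and that of Id3 chr4:136143572-136143821 (plus).
Irf1: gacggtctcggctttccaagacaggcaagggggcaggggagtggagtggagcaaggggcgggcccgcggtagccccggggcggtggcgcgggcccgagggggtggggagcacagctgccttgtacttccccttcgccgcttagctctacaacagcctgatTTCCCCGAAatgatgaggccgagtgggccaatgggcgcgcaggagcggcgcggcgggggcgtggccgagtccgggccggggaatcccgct
Cxcl10: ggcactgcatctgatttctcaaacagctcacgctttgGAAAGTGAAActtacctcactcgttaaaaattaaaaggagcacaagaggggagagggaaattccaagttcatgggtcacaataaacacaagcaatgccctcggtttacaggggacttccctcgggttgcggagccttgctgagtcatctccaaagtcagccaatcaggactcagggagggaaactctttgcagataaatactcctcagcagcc
Id2: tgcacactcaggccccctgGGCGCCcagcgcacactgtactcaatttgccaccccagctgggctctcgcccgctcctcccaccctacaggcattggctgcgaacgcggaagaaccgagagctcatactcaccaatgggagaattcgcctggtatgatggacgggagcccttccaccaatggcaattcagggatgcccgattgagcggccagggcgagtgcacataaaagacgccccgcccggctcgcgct
Id3: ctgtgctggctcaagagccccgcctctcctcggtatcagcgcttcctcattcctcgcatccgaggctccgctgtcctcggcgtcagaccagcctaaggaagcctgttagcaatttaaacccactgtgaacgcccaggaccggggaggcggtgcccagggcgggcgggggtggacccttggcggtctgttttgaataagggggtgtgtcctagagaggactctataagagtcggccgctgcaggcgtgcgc

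The STAT site of Irf1 starts 90 bases before the start site, the ISRE of Cxcl10 213 bases before it, and the SMAD1/5 letters of Id2 231 bases before it. For Irf1 the window of 1 of 2 listed start sites is shown; it also held GGCGCC starting 21 bases into the transcript, and the other held no match. The Id3 window held none of the motifs. Nor did the windows, not shown, of Ifnb1, which was higher without overlap, and of Smad6 and Atoh8, which were lower. An empty window says only that these letters are not there. Promoters of 300 bases (250 before and 50 after the start) were matched by symbol to 11643 of 17577 genes. The ISRE was in 3.11% of all 14830 such promoters, the STAT site in 7.0% and the SMAD1/5 letters in 19.6%. Among antiviral interferon-stimulated genes 37.7% of 61 promoters held the ISRE, and among interferon-inducible GTPases 81.8% of 11 did. Of 31 promoters of GAS-driven and IRF1-linked genes, 32.3% held the STAT site and 19.4% the ISRE. The STAT site was also in 54.5% of the 11 GTPase promoters and 16.4% of the 61 antiviral ones. Among 14 promoters of interferon regulatory factors 28.6% held it. Of 22 promoters of Id and BMP-SMAD genes 45.5% held GGCGCC and none the ISRE. These matches describe letters, not binding.

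Id1 and Id3 fell. They encode inhibitors of DNA binding, helix-loop-helix proteins that capture E proteins and hold back differentiation, and both are classical direct targets of BMP signalling through SMAD1 and SMAD5. Id1 (ENSMUSG00000042745, deposited as chromosome 2, 152578171 to 152579330) stood at 36.6, 41.7 and 41.9 FPKM (the deposited level, per transcript length and depth) in the controls and at 17.8, 19.4 and 16.4 FPKM with IFNα. Every treated library lay below every control, and the fall was 1.17 ± 0.12 (log2, SE; 0.443 times the control, edgeR adjusted p = 0.00316, n = 3 per group). Id3 (ENSMUSG00000007872, chromosome 4, 135870808 to 135872703) stood at 130, 164 and 172 FPKM in the controls and at 75.4, 81.2 and 75.1 FPKM with IFNα, again without overlap. Its log2 fold change was -1.01 ± 0.12 (edgeR adjusted p = 0.00643), a level 0.495 times the control. Against control 1 alone the log2 fold changes were -1.12 for Id1 and -0.84 for Id3, with edgeR adjusted p of 0.216 and 0.327 at 4 wild-type libraries; with a term for lung transcripts in all libraries they were -1.25 (adjusted p = 0.0219) and -0.87 (0.0891). Leaving out IFNα 3 ended both calls (adjusted p = 0.0621 and 0.081, log2 fold changes -1.14 and -1.02), and leaving out control 2 ended that of Id3 (0.067). On the 6 wild-type libraries alone Id1 passed (edgeR adjusted p = 0.0293) and Id3 did not (0.0701).

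Other genes of the same pathway had lower values in the same libraries. Id2, another Id gene, read 108, 81.0 and 79.2 FPKM in the controls and 59.3, 65.1 and 50.4 FPKM with IFNα. The groups did not overlap, but its log2 fold change of -0.64 ± 0.17 missed the edgeR threshold (adjusted p = 0.441) and passed DESeq2 (adjusted p = 0.0441). Smad6, an inhibitory SMAD that BMP signalling itself induces, read 6.62, 7.35 and 8.08 FPKM against 3.97, 4.64 and 4.56 FPKM. The difference of -0.75 ± 0.16 had an edgeR adjusted p of 0.284 and a DESeq2 adjusted p of 0.00519. Nog, which encodes the secreted BMP antagonist Noggin, read 1.10, 1.24 and 1.61 FPKM against 0.693, 0.389 and 0.385 FPKM (-1.45 ± 0.36, edgeR adjusted p = 0.441). Atoh8, a helix-loop-helix gene induced by BMP that is named here after its values were seen, read 14.6, 16.3 and 16.7 FPKM against 12.7, 12.7 and 11.5 FPKM (-0.38 ± 0.10, edgeR adjusted p = 0.499). Smad7, the inhibitory SMAD shared with TGF-beta signalling, overlapped between groups at 0.550 to 0.808 FPKM in the controls and 0.501 to 0.759 FPKM with IFNα.

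Not all Id proteins and BMP-SMAD targets had lower values. Of 40 genes written, 38 matched a symbol of the table and 28 of those passed the filter on low counts, so the others are no part of these counts. Of the 28, 2 passed edgeR, both lower (0.0171% of all genes), 4 passed DESeq2, all lower (0.29%), and 8 were lower and 0 higher at an unadjusted p of 0.05 (2.76% and 2.68% of all genes). In 7 the groups did not overlap, with IFNα lower each time (5.08% of all genes). The list's median log2 fold change was -0.03, beside 0.02 for all genes, and 14 members had positive values. Partners of the Id proteins were not called: of 19 helix-loop-helix genes tested, 0 passed edgeR or DESeq2. At an unadjusted p of 0.05, 0 were higher and 2 lower (2.68% and 2.76% of all genes), Mycn (-0.96 ± 0.34) and Hes6 (-0.28 ± 0.12). Of 22 TGF-beta targets, 0 passed edgeR or DESeq2, with 2 higher and 1 lower at an unadjusted p of 0.05 (2.68% and 2.76% of all genes), and a median of 0.01.

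**Figure D2:**
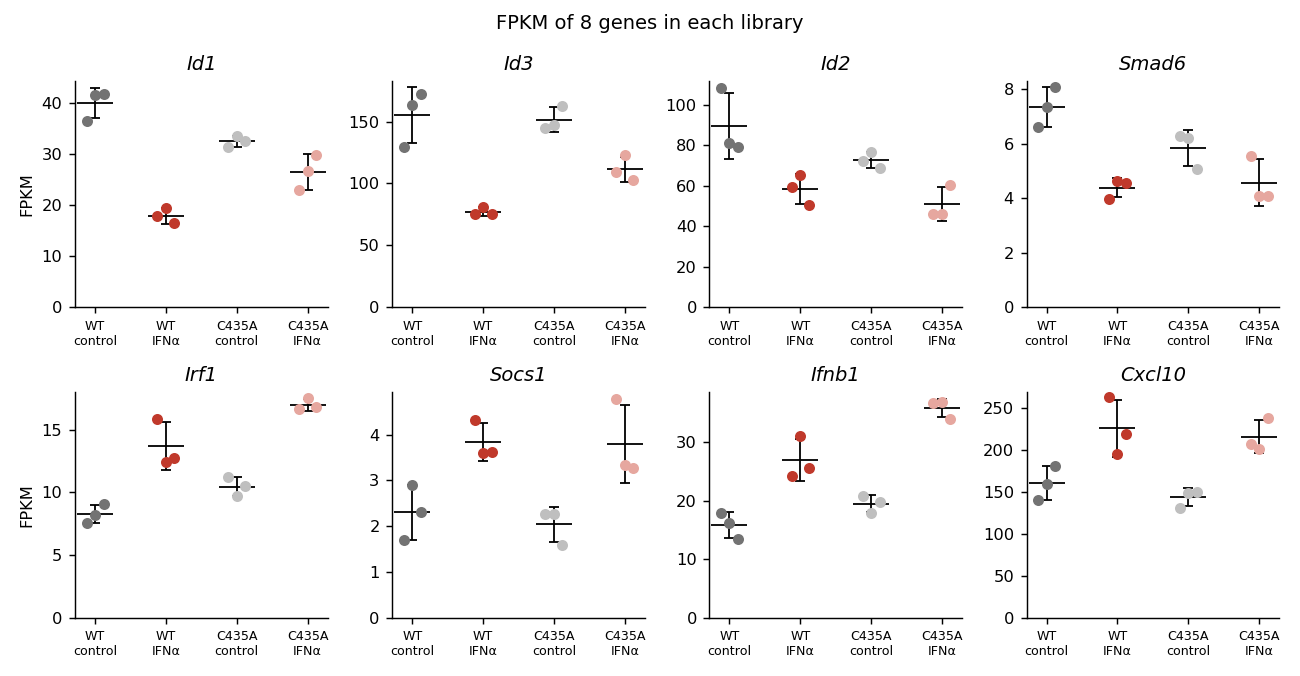
FPKM (y axis, from 0) of 8 genes in each of the 12 libraries, 3 points per group with the mean and SD. In wild-type cells Id1, Id3, Id2 and Smad6 sat lower in every IFNα library than in any control, and Irf1, Socs1, Ifnb1 and Cxcl10 sat higher; the C435A groups are shown beside them.

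Irf1 was the only gene that rose past the edgeR threshold. It encodes a transcription factor that carries the interferon signal to antigen presentation and T cell chemokine genes. Irf1 (ENSMUSG00000018899, deposited as chromosome 11, 53660841 to 53668149) read 7.58, 8.18 and 9.08 FPKM in the controls and 15.9, 12.4 and 12.8 FPKM with IFNα, without overlap. The log2 fold change was 0.71 ± 0.098, or 1.63-fold (edgeR adjusted p = 0.0202), and 0.76 against control 1 alone (adjusted p = 0.559) and 0.73 with a lung term (0.172). The call was lost in 8 of 12 fits with a single library removed, over which the log2 fold change ranged from 0.64 to 0.73. Every fit without a wild-type library was among those 8. On the 6 wild-type libraries alone Irf1 was not called (edgeR adjusted p = 0.172).

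Among the other regulators of the pathway, Socs1, the feedback inhibitor of JAK kinases, read 1.7, 2.90 and 2.32 FPKM in the controls and 4.32, 3.60 and 3.62 FPKM with IFNα. Its groups did not overlap, and the difference of 0.72 ± 0.21 missed the threshold (edgeR adjusted p = 0.58). Stat2, the STAT specific to type I and III interferons, read 3.39, 4.35 and 4.92 FPKM against 5.95, 4.74 and 5.11 FPKM (0.31 ± 0.13, edgeR adjusted p = 0.875), with overlap. Irf9, its DNA-binding partner, read 14.6, 13.7 and 16.8 FPKM against 16.8, 14.4 and 13.1 FPKM (-0.05 ± 0.10), and Irf7, the regulator of the IFNα genes, read 11.6, 12.8 and 12.5 FPKM against 8.84, 9.87 and 8.45 FPKM. The Irf7 values did not overlap and were lower with IFNα by -0.45 ± 0.17 (edgeR adjusted p = 0.798). The receptor genes had log2 fold changes of 0.19 ± 0.13 (Ifnar1) and -0.01 ± 0.11 (Ifnar2). Of 27 JAK kinases, STATs and feedback genes tested, 0 passed edgeR or DESeq2, 2 were higher and 0 lower at an unadjusted p of 0.05 (2.68% and 2.76% of all genes), and the median was 0.04.

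The 32 GAS-driven and IRF1-linked genes held 1 edgeR call, Irf1 itself, and 2 DESeq2 calls, both higher (0.0796% of all genes). At an unadjusted p of 0.05, 9 were higher and 1 lower (2.68% and 2.76% of all genes), and in 5 the IFNα libraries all lay above the controls (4.77%). Cxcl9, a ligand of CXCR3 on T cells, read 1.69, 1.08 and 0.677 FPKM in the controls and 1.49, 2.36 and 2.98 FPKM with IFNα (0.97 ± 0.35, edgeR adjusted p = 0.76), with control 1 above IFNα 1. Cd274, which encodes PD-L1, read 2.25, 2.37 and 2.22 FPKM against 3.63, 3.20 and 2.34 FPKM (0.40 ± 0.16, edgeR adjusted p = 0.815). Tap1, a subunit of the peptide transporter into the endoplasmic reticulum, read 8.73, 10.7 and 11.2 FPKM against 14.5, 11.0 and 11.9 FPKM (0.27 ± 0.11, edgeR adjusted p = 0.851). The list's median was 0.10.

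Interferon and chemokine genes held several positive values without overlap between groups, but no edgeR call. Ifnb1, the single interferon beta gene, read 17.9, 16.3 and 13.4 FPKM in the controls and 24.2, 31.0 and 25.5 FPKM with IFNα, with no overlap (0.74 ± 0.16, edgeR adjusted p = 0.361, DESeq2 adjusted p = 0.0169). Ifna4, an early interferon alpha gene, read 4.35, 2.19 and 1.73 FPKM against 6.06, 9.0 and 8.72 FPKM (1.5 ± 0.37, edgeR adjusted p = 0.441). Control 1 was the highest control for both, and against it alone the log2 fold changes were 0.51 and 0.79. Reads of Ifna4 may be shared with its near-identical neighbours, so its value is uncertain. Cxcl10, another CXCR3 ligand, read 140, 159 and 181 FPKM against 263, 196 and 219 FPKM (0.48 ± 0.12, edgeR adjusted p = 0.441, DESeq2 adjusted p = 0.0261). Of 39 chemokine and cytokine genes tested, 0 passed edgeR and 1 DESeq2, higher (0.0796% of all genes), 5 were higher and 0 lower at an unadjusted p of 0.05 (2.68% and 2.76%), and the median was 0.18. The other named ones were Ccl4, a chemokine for monocytes and T cells (0.64 ± 0.22), and Csf1, the macrophage growth factor (0.43 ± 0.14).

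Antiviral interferon-stimulated genes were abundant before treatment, and no test called one of them. Of 64 written, 63 were tested, and 37 had a mean of at least 10 FPKM in the controls. The median control level of the 63 was 15.2 FPKM, beside 1.36 FPKM for all genes tested. In edgeR and in DESeq2 0 passed, and 7 were higher and 7 lower at an unadjusted p of 0.05 (2.68% and 2.76% of all genes). The groups did not overlap for 3 genes that were higher and 7 that were lower with IFNα (4.77% and 5.08%), and the median log2 fold change was 0.09. The upper 95% limit was under a 2-fold increase in 58 of the 63 genes, against 73.6% of all genes. These shares were not matched for expression level, on which the width of an interval depends. Mx1, a GTPase that blocks influenza virus, read 16.5, 13.2 and 18.0 FPKM in the controls and 25.2, 18.9 and 18.0 FPKM with IFNα, the lowest of them just above the highest control (0.36 ± 0.14, 95% interval 0.06 to 0.66). Cmpk2, a mitochondrial nucleotide kinase, read 11.1, 14.5 and 18.7 FPKM against 26.2, 15.2 and 18.9 FPKM (0.43 ± 0.16, interval 0.09 to 0.77). Usp18, which detaches ISG15 and blocks the receptor, read 220, 211 and 254 FPKM against 253, 212 and 208 FPKM (-0.04 ± 0.15, interval -0.36 to 0.27). Ifitm3, which hinders virus entry at membranes, was lower in each IFNα library, at 2332, 2672 and 2411 FPKM against 2021, 1914 and 1958 FPKM (-0.35 ± 0.11, edgeR adjusted p = 0.682). Lgals9, a galectin of the same list, read 126, 147 and 158 FPKM against 125, 107 and 113 FPKM (-0.33 ± 0.12).

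**Figure D3:**
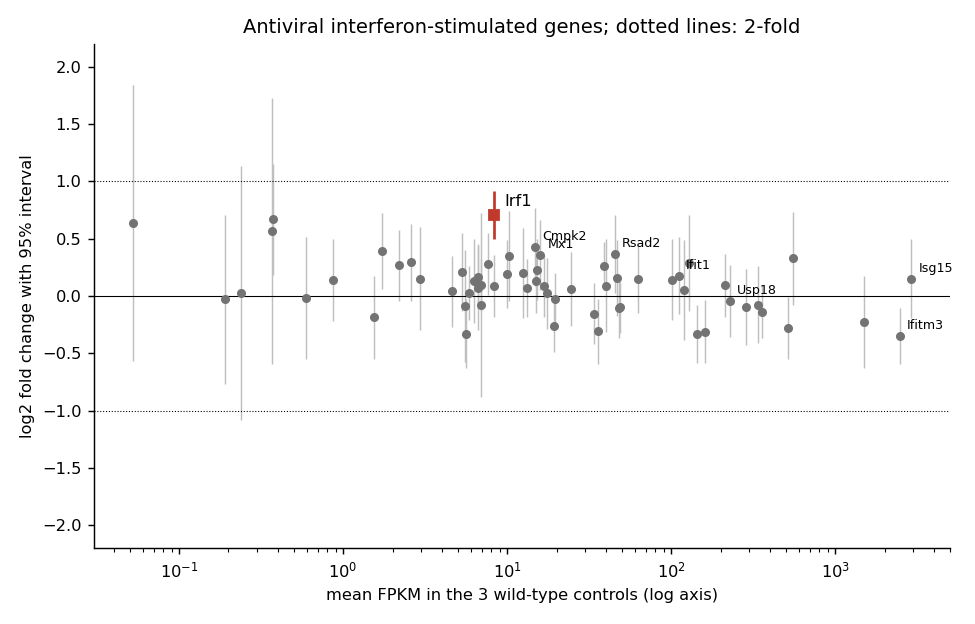
Log2 fold change with IFNα and its 95% interval (y axis) against mean control FPKM (x axis, log scale) for 62 antiviral interferon-stimulated genes (grey) and Irf1 (red); 1 further gene with an upper limit above 2.2 is not drawn. Most intervals stay between the dotted 2-fold lines at all levels.

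Interferon-inducible GTPases, the Irg, Gbp and Tgtp proteins that attack vacuoles of intracellular pathogens, had a median of 0.24 over 17 genes tested. It ranged over the alternatives from 0.025, against control 1 alone, to 0.34, without control 1. At an unadjusted p of 0.05, 3 were higher and 0 lower (2.68% and 2.76% of all genes), and 0 passed edgeR or DESeq2. Ifi47 read 43.4, 32.2 and 35.9 FPKM in the controls and 61.9, 57.9 and 46.2 FPKM with IFNα, with no overlap (0.55 ± 0.16, edgeR adjusted p = 0.58). Tgtp2 read 114, 89.8 and 91.5 FPKM against 135, 143 and 113 FPKM (0.38 ± 0.15), and Irgm2 15.0, 17.2 and 17.1 FPKM against 23.7, 16.9 and 20.1 FPKM (0.28 ± 0.11), both with overlap. Genes of these families resemble each other closely, so reads may have been split between them.

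Genes of MHC class I presentation had values on both sides of 0. Of 28 genes tested, 0 passed edgeR and 2 passed DESeq2, both lower (0.29% of all genes). At an unadjusted p of 0.05, 6 were lower and 2 higher (2.76% and 2.68%). Psme1, a subunit of the PA28 activator of the proteasome, read 82.2, 89.7 and 97.3 FPKM in the controls and 69.1, 63.3 and 66.1 FPKM with IFNα (-0.45 ± 0.11, DESeq2 adjusted p = 0.0212). H2-T23, the non-classical class I gene for Qa-1, read 6.28, 6.23 and 7.11 FPKM against 5.2, 4.52 and 4.62 FPKM (-0.47 ± 0.12, DESeq2 adjusted p = 0.0466). H2-K1, a classical class I heavy chain, read 77.0, 71.6 and 76.1 FPKM against 69.4, 59.1 and 62.2 FPKM (-0.26 ± 0.11, edgeR adjusted p = 0.902). All 3 of these genes were lower in each IFNα library than in any control, in counts that may be shared among close class I copies. The list's median was -0.02.

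Mitosis and DNA replication genes had small positive values nearly throughout. Of 42 mitosis genes tested, 41 had a positive log2 fold change, beside 52.9% of all genes, with a median of 0.30 and a range of -0.15 to 0.49. At an unadjusted p of 0.05, 14 were higher and 0 lower (2.68% and 2.76% of all genes), and 0 passed edgeR or DESeq2. Of 40 DNA replication genes, 39 were positive with a median of 0.24, 11 were higher at an unadjusted p of 0.05 (2.68% of all genes) and 10 were higher without overlap between groups (4.77%). Incenp, a subunit of the chromosomal passenger complex, read 5.98, 7.89 and 8.82 FPKM in the controls and 12.1, 9.12 and 9.92 FPKM with IFNα (0.44 ± 0.13, edgeR adjusted p = 0.575). Tpx2, the spindle activator of Aurora A, read 5.40, 5.71 and 6.72 FPKM against 9.48, 6.64 and 6.98 FPKM (0.35 ± 0.12). IFNα 1 was the highest library for both, and it was also the library with the strongest length trend. The medians of mitosis and DNA replication were 0.22 and 0.20 without that library, 0.27 and 0.22 with the length trend removed, and 0.25 and 0.22 against control 1 alone.

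Cdc45, a part of the replicative helicase, read 12.8, 12.6 and 14.9 FPKM in the controls and 18.8, 15.7 and 15.8 FPKM with IFNα (0.31 ± 0.091, edgeR adjusted p = 0.576). Mcm6, another helicase subunit, read 25.1, 19.5 and 22.3 FPKM against 34.2, 27.2 and 27.2 FPKM (0.38 ± 0.14), with no overlap. Ska1, which ties kinetochores to microtubules and stands outside these lists, read 5.99, 5.50 and 5.65 FPKM against 8.74, 9.03 and 8.40 FPKM, an even rise in all 3 libraries that passed DESeq2 (0.59 ± 0.13, edgeR adjusted p = 0.305, DESeq2 adjusted p = 0.0142). Knstrn, a kinetochore protein, read 16.2, 15.0 and 15.2 FPKM against 19.8, 22 and 21.0 FPKM (0.42 ± 0.12), and Pkmyt1, the kinase that restrains CDK1, 3.31, 4.20 and 4.21 FPKM against 5.94, 4.77 and 5.94 FPKM (0.49 ± 0.14).

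Several histone genes had lower values at the same time. H2bc4 read 148, 136 and 155 FPKM in the controls and 94.3, 98.4 and 74.3 FPKM with IFNα, with no overlap and just short of the edgeR threshold (-0.73 ± 0.11, adjusted p = 0.0588, DESeq2 adjusted p = 1.3e-06). H1f2, a linker histone, read 76.8, 78.4 and 103 FPKM against 68.9, 60.5 and 54.3 FPKM (-0.50 ± 0.11, DESeq2 adjusted p = 0.00267), and H2bc8 read 30.9, 27.8 and 30.2 FPKM against 20.4, 23 and 16.4 FPKM (-0.59 ± 0.14, DESeq2 adjusted p = 0.0312). H1f0, a linker histone of resting cells that is made outside S phase, read 132, 118 and 136 FPKM against 167, 155 and 140 FPKM, with a difference of 0.24 ± 0.10. Of 17 histone genes tested, 0 passed edgeR and 3 DESeq2, all lower (0.29% of all genes), and the median was -0.01. The libraries were selected for poly(A) tails, which most histone mRNAs of S phase lack, and histone copies are close in sequence, so these values describe the polyadenylated part and may be shared between copies.

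**Figure D4:**
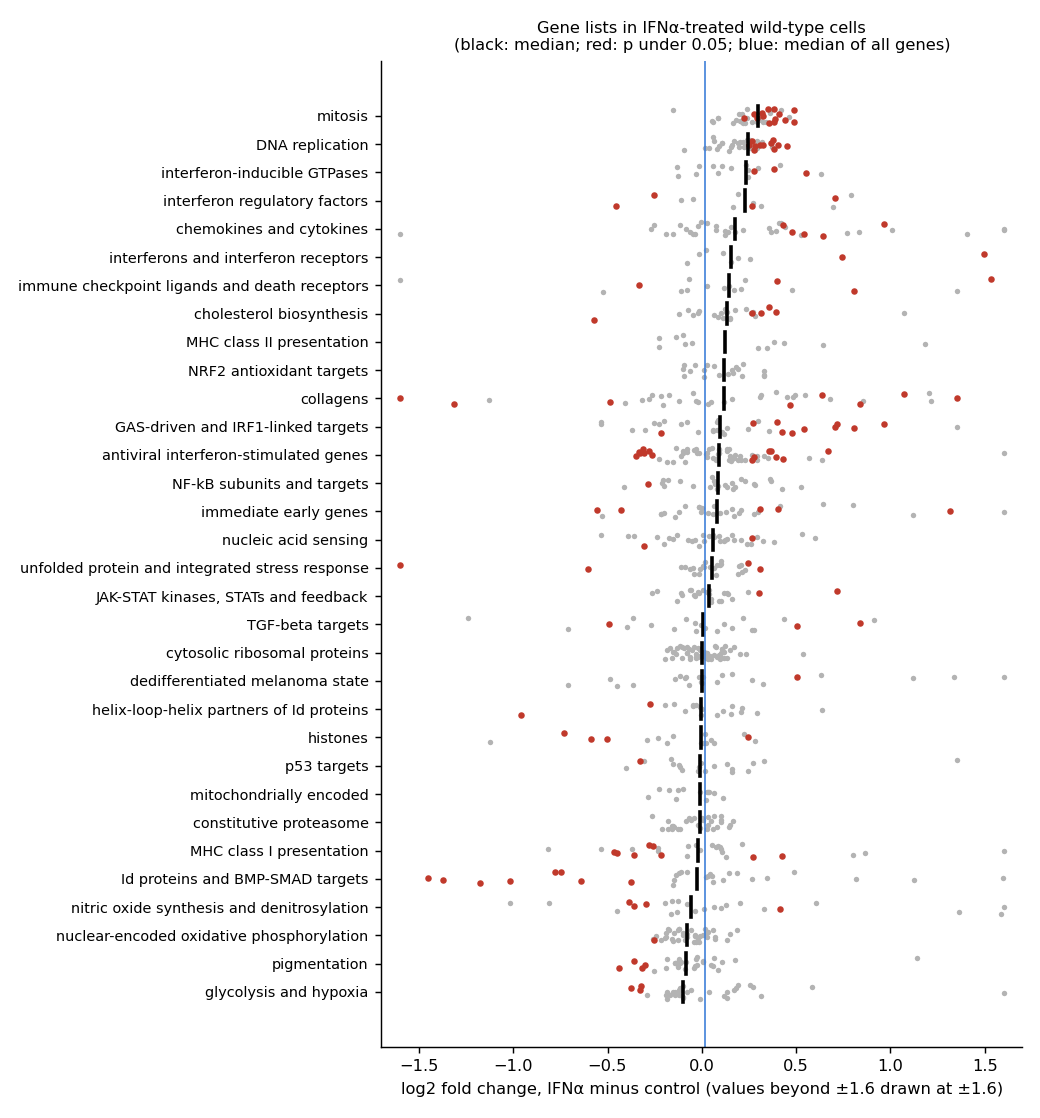
Log2 fold change with IFNα (x axis) of the tested members of 32 gene lists (rows, ordered by their median); red points have an unadjusted p under 0.05, black bars are medians and the blue line is the median of all genes, 0.02. Mitosis and DNA replication stand at the top, and the Id and BMP-SMAD list holds a tail of red points below 0.

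Col9a3, the remaining gene that fell, encodes a chain of the cartilage collagen IX. It read 1.87, 2.22 and 2.10 FPKM in the controls and 0.946, 0.880 and 0.684 FPKM with IFNα (-1.32 ± 0.18, 0.402 times the control, edgeR adjusted p = 0.0202). Its deposited position is chromosome 2, 180239583 to 180263982 (ENSMUSG00000027570). The call was kept in 6 of the 12 fits that left out a library, and all 6 left out a mutant library. Every fit without a wild-type library lost the call (edgeR adjusted p from 0.0705 to 0.2285), and a lung term also ended it (-1.12, adjusted p = 0.183). On the 6 wild-type libraries alone Col9a3 was not called (edgeR adjusted p = 0.0701). Of 35 collagens tested, Col9a3 included, 5 were higher and 3 lower at an unadjusted p of 0.05 (2.68% and 2.76% of all genes), and the fibroblast and smooth muscle markers of the libraries summed to 57.7, 60.5 and 59.2 CPM in the controls and 76.2, 76.6 and 92.1 CPM with IFNα. The part of those cells in the collagen values was not tested.

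The remaining genes with the smallest p among those of at least 5 FPKM passed DESeq2 but not edgeR on the lower side. Bfsp2, a beaded filament protein known from the lens, read 72.2, 78.3 and 92.8 FPKM in the controls and 53.8, 52.2 and 49.4 FPKM with IFNα (-0.66 ± 0.11, edgeR adjusted p = 0.0763). Cda, cytidine deaminase of pyrimidine salvage, read 11.2, 14.3 and 16.9 FPKM against 7.87, 8.76 and 7.79 FPKM (-0.80 ± 0.15, edgeR adjusted p = 0.192). Lims2, an adaptor of integrin-linked kinase at focal adhesions, read 10.3, 10.5 and 10.3 FPKM against 5.78, 6.60 and 6.46 FPKM (-0.73 ± 0.14, edgeR adjusted p = 0.192). In all 3 genes the groups were apart. Dhrs11, a short-chain dehydrogenase, had -0.56 ± 0.10, Sh3bp4, a regulator of transferrin receptor uptake, -0.61 ± 0.12, Spsb2, an adaptor for ubiquitination, -0.65 ± 0.13, and Hspb8, a small heat shock protein, -0.48 ± 0.098.

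On the higher side, Slc29a1, the equilibrative nucleoside transporter ENT1, read 8.76, 10.3 and 11.7 FPKM in the controls and 15.4, 12.7 and 13.4 FPKM with IFNα (0.41 ± 0.10, DESeq2 adjusted p = 0.0441). Scd2, a stearoyl-CoA desaturase, read 26.2, 29.8 and 37.4 FPKM against 55.2, 35.3 and 45.8 FPKM (0.53 ± 0.13, DESeq2 adjusted p = 0.0441), with IFNα 2 below control 3. Cdca7, a MYC and E2F target, had 0.53 ± 0.14, and Sun2, a nuclear envelope protein, 0.47 ± 0.13, neither passing a test. All 24 genes with the smallest p, 12 in each direction, kept their sign against control 1 alone. They also kept it with a term for lung transcripts and with the length trend removed. These fits share the 3 IFNα libraries and control 1, and the 24 genes were picked on these same libraries. A kept sign was therefore largely fixed by the choice of genes, and the part of lung transcripts was not tested by it. Against control 1 alone, Ifna4 moved from 1.5 to 0.79, Cdca7 from 0.53 to 0.29 and Sh3bp4 from -0.61 to -0.38.

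**Figure D5:**
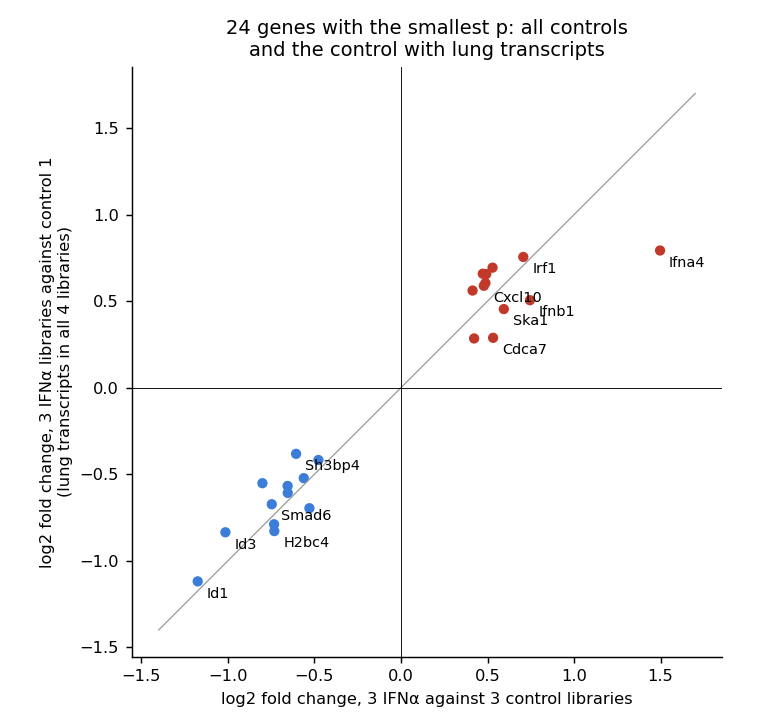
Log2 fold change of the 24 genes with the smallest p (mean of at least 5 FPKM) against all 3 controls (x axis) and against control 1 alone (y axis). Control 1 holds lung transcripts as the IFNα libraries do. The line marks equal values. Both axes share the IFNα libraries and control 1, and the genes were picked by the comparison on the x axis. Id1 lies near the line, and Ifna4 lies below it at 0.79.

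Stress, pigment and metabolic lists held 0 edgeR calls and few DESeq2 calls. Ddit3, which encodes the stress factor CHOP, read 151, 135 and 151 FPKM in the controls and 90.3, 105 and 95.6 FPKM with IFNα, with no overlap (-0.60 ± 0.13, edgeR adjusted p = 0.284, DESeq2 adjusted p = 0.00242). Atf3, a partner of the same stress response, had higher values, at 20.3, 20.6 and 25 FPKM against 29.1, 27.2 and 26 FPKM (0.31 ± 0.10, edgeR adjusted p = 0.673). Of 26 genes of the unfolded protein and integrated stress responses, 0 passed edgeR and 1 DESeq2, lower (0.29% of all genes). At an unadjusted p of 0.05, 2 were higher and 2 lower (2.68% and 2.76%), and the median was 0.06. Asl and Ass1, which make arginine from citrulline for nitric oxide synthesis, read 39.8, 41.7 and 45.7 against 33.3, 32.0 and 32.7 FPKM (Asl, -0.39 ± 0.092, DESeq2 adjusted p = 0.00208) and 85.9, 104 and 133 against 96.3, 79.5 and 77.2 FPKM (Ass1, -0.36 ± 0.14). The nitric oxide list had 3 lower and 1 higher of 24 at an unadjusted p of 0.05 (2.76% and 2.68% of all genes) and a median of -0.06. Of 25 cholesterol biosynthesis genes, 0 passed edgeR or DESeq2. At an unadjusted p of 0.05, 4 were higher and 1 lower (2.68% and 2.76% of all genes). That list's median was 0.13, and 19 of the 25 had positive values.

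Among 30 pigmentation genes 0 passed edgeR or DESeq2, 4 were lower and 0 higher at an unadjusted p of 0.05 (2.76% and 2.68% of all genes), and the median was -0.09. Gpr143, the melanosome receptor OA1, read 32.3, 31.4 and 41.1 FPKM in the controls and 32.4, 24.3 and 21.6 FPKM with IFNα (-0.44 ± 0.13), and Mc1r, the melanocortin receptor, 21.1, 24.2 and 29.8 against 23.6, 17.2 and 18.4 FPKM (-0.36 ± 0.12). Both overlapped between groups. Oxidative phosphorylation, glycolysis, ribosomal protein and proteasome lists (41, 33, 57 and 31 genes tested) had medians of -0.08, -0.10, 0.00 and -0.01. Each had 0 genes past edgeR or DESeq2, with 1, 3, 0 and 0 genes past an unadjusted p of 0.05 (5.44% of all genes). NRF2 targets (20 genes, median 0.12), NF-kB genes (27, median 0.09), p53 targets (20, median -0.01) and immediate early genes (32, median 0.08) likewise had 0 calls in either tool. Past an unadjusted p of 0.05 these lists had 0, 1, 1 and 5 genes (5.44% of all genes). The 5 immediate early genes were 3 higher and 2 lower.

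Some genes followed the called genes across all 12 libraries, both lines included. Over 5409 genes, the log2 levels most like Id1 were those of Lims2 (Pearson r = 0.950), H2bc4 (0.939), Id3 (0.934), H2bc8 (0.902) and Borcs8 (0.895). Those most like Id3 were Asl (0.967), Dhrs11 (0.941), Hspb8 (0.937), Id1 and Eif2b2 (0.917). Those most like Irf1 were Nmral1 (0.939), Cdc45 (0.938), Tor3a (0.930), H1f0 (0.918) and Atf3 (0.910). These are descriptions over 12 points that share libraries and their depth and length trends.

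In the C435A line, whose libraries are separate from the wild-type ones, the same genes were compared side by side. Irf1 read 11.2, 9.70 and 10.5 FPKM in the controls and 16.6, 17.5 and 16.8 FPKM with IFNα, a log2 fold change of 0.68 ± 0.10 beside 0.71 in the wild type. Id1 read 31.5, 33.7 and 32.7 FPKM against 23, 26.7 and 30.0 FPKM, with a log2 fold change of -0.32 ± 0.12 beside -1.17. The difference between lines of -0.86 ± 0.17 had an unadjusted p of 0.000219 and an edgeR adjusted p of 0.916, so it was not called. Id3 had -0.47 ± 0.12 beside -1.01 (edgeR adjusted p of the difference 0.916), H2bc4 -0.21 ± 0.11 beside -0.73, and Ifnb1 0.85 ± 0.16 beside 0.74. For the difference between lines 0 of 17590 genes passed edgeR (0.0%), with 908 (5.16%) at an unadjusted p of 0.05. In the mutant the lung transcripts were distributed otherwise, at 55.5, 68.5 and 58.9 CPM in the controls and 1.38, 1.21 and 73.2 CPM with IFNα. Of 414 genes with an unadjusted p under 0.05 and at least 5 FPKM in the wild type, 310 (74.9%) had the same sign in the mutant, beside 52.9% of 5625 genes at that level. The Pearson correlation did not follow the signs. Across genes the log2 fold changes of the lines had r = -0.211 over the 414 and r = -0.0262 over the 5625. Single large values can set such an r, and their part was not tested. Both are descriptions over genes that are not independent replicates.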

How the data were processed

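RNA of 12 B16F10 libraries was sequenced after poly(A) selection with strand marked by dUTP and identifiers in the adapters, per the labels' protocols. Tools named in the submitters' processing notes are HISAT2 2.0.4, StringTie 1.3.4d, cutadapt 1.9, edgeR, DESeq2 and UMI-tools, with the build GRCm38. How reads were counted, and whether strand was used, is not given in the sources used here, so overlapping antisense genes cannot be told apart. The authors deposited whole-number counts, not scaled for depth, and FPKM, which per the file headers are scaled for length and depth, for 27503 genes. Of the counts from 1 to 30, 33.6% were multiples of 4 (23.3% of whole numbers are), and what 1 count stands for is not known. The SD of the log2 ratio between wild-type libraries of a group was 0.223 to 0.378 over 6318 genes.

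Counts were tested with edgeR 4.0.16 (R 4.3.3; TMM, default filter, quasi-likelihood, two-sided, Benjamini-Hochberg adjustment) in a fit of all 12 libraries with 4 group means (common coefficient of variation 28.9%). The code was tested on simulated counts. Transcript lengths (GENCODE M21) were found for 97.7% of genes tested. The members, gene lists and tests were chosen with earlier results of these data known. Named were all called genes, the 12 smallest p in each direction at 5 FPKM or more, set interferon and Id genes, up to 4 members per list and the genes most like Id1, Id3 and Irf1. Alternatives were DESeq2 1.42.0, other scalings and filters, limma 3.58.1 on log2(FPKM + 1) and log2(FPKM + 0.1), a lung term, control 1 alone, a replicate block, each library left out and, chosen after seeing the data, removal of the length trend. Deposited positions differ from GRCm38 and were not converted.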

Additional observations from a re-analysis of the deposited data

How the results depend on the processing

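Against 4 genes called, edgeR on the 6 wild-type libraries alone called 2, DESeq2 65, limma on log2(FPKM + 0.1) 2, a lung term 1 and control 1 alone 0, where fewer samples were compared. Of 3 calls of at least 2-fold, DESeq2 had 18, limma on log2(FPKM + 1), on log2(FPKM + 0.1) and after quantile normalization 1 each, a lung term 1 and control 1 alone 0. Leaving out each library gave 0 to 7 calls and 0 to 4 of at least 2-fold: removal of IFNα 3 left 0 calls, of control 2 left 1, of IFNα 1, control 1 or control 3 left 2 each (all wild type), and of mutant IFNα 3 left 7. The cause was not tested. With the length trend removed 6 genes were called. Of the 4 genes called in the main fit, Id1 passed on the 6 wild-type libraries alone (edgeR adjusted p = 0.0293). Id3 (0.0701), Irf1 (0.172) and Col9a3 (0.0701) did not pass there.

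Replicate numbers gave no pairing: same-numbered wild-type samples correlated at -0.452, 0.0511 and -0.405 over 6318 genes, and no sample correlated best with its own number. The fit with the replicate number as a block called 2 genes, 0 higher and 2 lower; Irf1 (0.70, edgeR adjusted p = 0.0966) and Col9a3 (-1.32, adjusted p = 0.0564) were not among them.

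Id1 kept its sign in 26 of 26 alternatives and its call in 24, Id3 its sign in 26 and its call in 21, Irf1 its sign in 26 and its call in 11. Sign changes arose for genes near 0: Irf9 was 0.00406 without wild-type IFNα 3, Usp18 0.14 and Smad7 0.012 with a lung term, and Ifnar2 0.00579 with library totals, 0.00593 and 0.00525 in limma with pseudocounts of 0.1 and 1, and from -0.082 to 0.049 with each library left out. Median log2 fold changes over the alternatives ranged from 0.22 to 0.33 for mitosis and from 0.20 to 0.28 for DNA replication. They ranged from -0.50 to 0.02 for Id and BMP-SMAD genes, from -0.06 to 0.14 for antiviral genes and from -0.10 to 0.39 for chemokines. Some alternatives used other filters on low levels, so the members behind a median differed between settings as well as the method.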
